A study of Homo sapiens with 12 samples.

Results

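RD cells, an established line from a fusion-negative rhabdomyosarcoma, carried a hairpin against NT5E titled ish in the labels, and doxycycline (Dox) was used to switch on the hairpin. The comparison described here set the 3 ish libraries grown with Dox, labelled as CD73 knockdown, against the 3 ish libraries grown without it, labelled as control. These are 6 of the 12 libraries of the series, the other 6 being the same design with a second construct, ish2. Of 26485 genes in the deposited table, the 15206 with enough counts were tested and 11279 were left out. Cells attached for 24 h and were then kept for 96 h with Dox at 10 ng/mL or with none before messenger RNA was sequenced. Both groups carry the construct, so the groups differ by Dox and whatever it switches on, which cannot be told apart here because no library has Dox with a hairpin against no human gene. No label states that the replicates were grown as separate cultures. The p-values therefore rest on the spread between replicate libraries alone, estimated over all 12, and that spread may be technical. The sources used here give neither the letters of the hairpins nor whether the line is a single clone.

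NT5E encodes CD73, an enzyme on the cell surface that removes the phosphate from extracellular AMP and so makes adenosine, which signals through the ADORA receptors. Rhabdomyosarcoma is a tumour of cells committed to skeletal muscle that keep dividing and do not complete differentiation. Normal myoblasts leave the cell cycle under MYOD1 and MYOG, switch on the sarcomere genes and fuse, and growth factor signalling through RAS and ERK holds them back. RNA interference lowers an mRNA that pairs with a hairpin's guide strand over its length, and small RNAs can also lower mRNAs that pair with a few bases of the guide.

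Levels are given as CPM, the counts of a gene over the library size scaled by edgeR's TMM factors, in replicates 1, 2 and 3 in that order. Fold changes are log2 values of Dox over no Dox with their standard error (SE), n = 3 libraries in each group. A gene was called when its adjusted p in edgeR's quasi-likelihood test, by Benjamini-Hochberg over the 15206 tested genes, was under 0.05, and "rose" and "fell" are used only of called genes. Gene counts in the 6 libraries ran from 30137434 to 32692207, and the 3 libraries of each group lay together on both leading principal components. With replicates this close, 11945 genes (78.6%) were called, 5941 higher (39.1%) and 6004 lower (39.5%), so a call alone says little and sizes are given throughout. Past 2-fold, 1107 genes rose (7.28%) and 1594 fell (10.5%), and the groups did not overlap for 80.6% of all tested genes. The 1107 genes held 2.09% to 2.17% of the counts of tested genes without Dox and 6.29% to 6.49% with it, and the 1594 genes 9.20% to 9.22% and 3.09% to 3.10%. In bulk RNA, fewer cells of a kind and less RNA in each cell cannot be told apart.

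Muscle identity was checked on the markers DES, MYOD1, MYOG, CHRNA1 and CDH15, which all had counts, while MYF5 had too few to be tested. DES, the intermediate filament of muscle, was at 312, 297 and 308 CPM without Dox and 553, 517 and 547 CPM with Dox. PECAM1, CDH5, PTPRC, CD3E, EPCAM, CDH1, SOX10 and ADIPOQ, defining markers of other cell types, had too few counts to be tested. Of the other cell type lists, 5 of 8 endothelial, 2 of 6 haematopoietic, 2 of 6 epithelial, 5 of 6 neural, 5 of 6 smooth muscle and cardiac, 4 of 5 fibroblast and 0 of 4 adipocyte genes were tested. The summed level of the endothelial genes ran from 119.5 to 128 CPM without Dox and from 63.5 to 65.4 CPM with it. For the epithelial genes, which here are KRT18 and KRT8, it was 31.6 to 33.6 CPM against 6.56 to 8.24 CPM. The haematopoietic sum was 2.61 to 3.03 CPM against 1.53 to 2.34 CPM, the smooth muscle and cardiac sum 49.4 to 50.4 against 35.2 to 36.4 CPM, and the fibroblast sum 348 to 363 against 204 to 207 CPM, although 2 of its 4 tested genes rose and 2 fell. The neural sum, mostly TUBB3, was higher with Dox, 365 to 389 CPM against 232 to 233 CPM. Of its 5 tested genes 1 rose and 1 fell, the fall past 2-fold. Among the 5 endothelial genes 3 fell and 1 rose past 2-fold. The 5 smooth muscle and cardiac genes also had 3 that fell and 1 that rose past 2-fold. The part of these markers in the results below was not tested.

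NT5E itself was at 14.9, 18.0 and 17.3 CPM without Dox and 1.94, 1.23 and 1.54 CPM with Dox. Each Dox library lay below each library without Dox, a log2 fold change of -3.41 ± 0.11 (edgeR adjusted p = 3.31e-25), and the exact two-sided permutation test over the 6 libraries gave p = 0.1, the smallest that 3 against 3 allows. The gene spans chr6:85449584-85495791 on the plus strand of GRCh38. Its nearest tested neighbours moved far less. SNX14, the next gene, was at a log2 fold change of -0.09 ± 0.033 and SYNCRIP at -0.31 ± 0.025, and TBX18 on the other side at -0.25 ± 0.045. TBX18 holds in its 3′ UTR the 8-base word described below. With ish2 the NT5E value was -0.67 ± 0.065, and the difference between the constructs was -2.74 ± 0.13 (edgeR adjusted p = 2.91e-19).

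**Figure D1:**
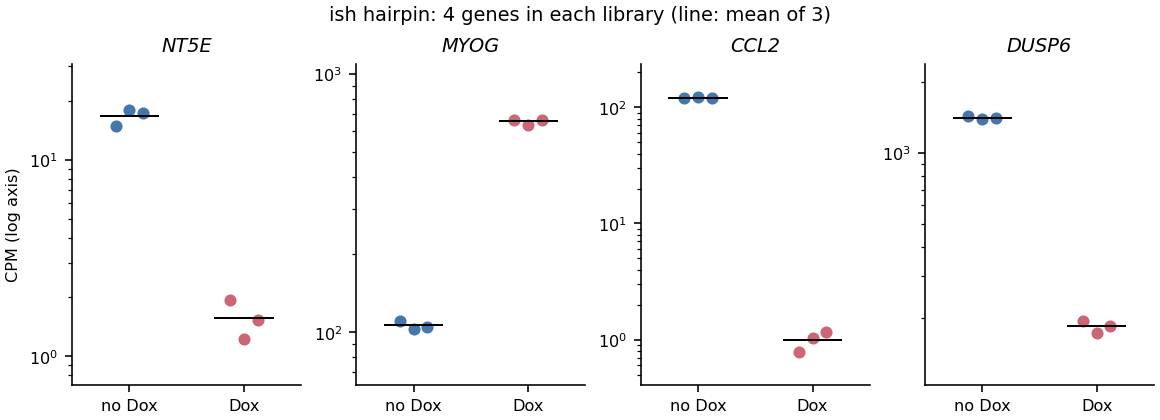
CPM on a log axis in each of the 6 ish libraries for NT5E, MYOG, CCL2 and DUSP6, with blue points for no Dox, red points for Dox and a line at the mean of 3. The groups do not overlap for any of the 4 genes, and MYOG is the only one of them that is higher with Dox.

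Around NT5E, the genes of adenosine handling moved in both directions. Of 21 enzymes and transporters tested, NT5E included, 9 rose and 7 fell, 2 of each past 2-fold, shares near those of all tested genes, with a median of -0.01 against -0.01 for all tested genes. ENTPD1 (CD39), which makes the AMP that CD73 uses, was at 51.7, 52.7 and 51.5 CPM without Dox and 57.2, 58.5 and 60.6 CPM with Dox. ADK, which returns adenosine to AMP inside the cell, was at 44.7, 45.4 and 48.5 CPM without Dox and 71.9, 67.9 and 68.8 CPM with Dox. Both rose, by 0.18 ± 0.037 and 0.59 ± 0.039, and their groups did not overlap. PNP, the purine nucleoside phosphorylase, fell from 23.1 to 9.30 CPM (-1.31 ± 0.059). The muscle AMP deaminase AMPD1 rose from 0.266 to 3.11 CPM (3.52 ± 0.24) and the cytosolic nucleotidase NT5C1A from 0.490 to 2.65 CPM (2.43 ± 0.21), both from very low levels. Of 19 receptors listed, 10 had too few counts to be tested. Of the 9 tested, 7 rose and none fell, against 39.1% and 39.5% of all tested genes. Their median was 0.49, and 0.65 without word holders, a term explained below. A gene could have enough counts through a single group where it was high, so these values describe the tested receptors only. The adenosine receptor ADORA1 was at 43.1, 39.2 and 42.3 CPM without Dox and 89.8, 88.3 and 87.6 CPM with Dox (1.09 ± 0.046), and the ATP-gated channel P2RX1 rose from 0.212 to 3.23 CPM (3.90 ± 0.23). ADORA2B was at 25.1, 24.0 and 25.8 CPM without Dox and 25.2, 22.1 and 21.9 CPM with Dox, overlapping groups that did not pass the test, and ADORA2A and ADORA3 had too few counts to be tested.

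NT5E mRNA holds 8 bases that also turn up in the 3′ untranslated regions (UTRs) of genes that were lower with Dox, and they are shown because they head the ranking of words described next. Each 7-base word was ranked by the difference in ish log2 fold change between genes that hold it in their 3′ UTR and genes that do not, at equal UTR length and GC content, over 12988 genes with a 3′ UTR of at least 50 bases in GENCODE v29. Of 14550 words held by at least 200 genes, ATCATGA was lowest, at -0.30, and TCATGAA next, at -0.27, and together they spell ATCATGAA. The word after them stood at -0.19, and the 1st and 99th percentiles of all ranked words were -0.09 and 0.11. On the mRNA strand only, the 8 bases occur once in NT5E mRNA, at base 906 of 3918 in the coding region, and the NT5E 3′ UTR holds ATCATGA once besides. The copy in NT5E and the first 3′ UTR copies of 5 genes that fell, chosen after their values were seen, read as below, with the 8 bases in capitals.
NT5E, coding, chr6:85467070-85467077, plus strand: gcactgggaaATCATGAAtttgataatg
TGFBR1, 3′ UTR, chr9:99153052-99153059, plus strand: tgaactgaatATCATGAAccatgttttg
DKK1, 3′ UTR, chr10:52317378-52317385, plus strand: aacatttaatATCATGAAatgttataag
NOTCH1, 3′ UTR, chr9:136495351-136495358, minus strand: catggtaccaATCATGAAtctttgtttc
CALU, 3′ UTR, chr7:128770602-128770609, plus strand: ggaaacgtttATCATGAAtcaacagggt
MAD2L1, 3′ UTR, chr4:120059918-120059925, minus strand: tggagttaacATCATGAAtttattgcac

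TGFBR1, the kinase receptor for TGF-beta, was at 173, 178 and 181 CPM without Dox and 35.9, 32.8 and 35.5 CPM with Dox (-2.35 ± 0.038). CALU, a calcium-binding protein of the endoplasmic reticulum, was at 991, 1006 and 1006 CPM without Dox and 249, 236 and 246 CPM with Dox (-2.04 ± 0.026). In both genes the groups lay at least 3-fold apart with no overlap, and with ish2 the values were 0.73 ± 0.031 and -0.10 ± 0.024. MAD2L1, of the spindle checkpoint, was at 67.3, 62.7 and 64.9 CPM without Dox and 19.9, 18.5 and 20.7 CPM with Dox, DKK1, a secreted WNT inhibitor, at 149.7, 157 and 152 CPM without Dox and 43.2, 48.8 and 44.7 CPM with Dox, and the receptor NOTCH1 at 287, 286 and 282 CPM without Dox and 138, 130.4 and 134 CPM with Dox. Their folds were -1.72 ± 0.045, -1.75 ± 0.034 and -1.09 ± 0.029.

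The 624 genes with all 8 bases in the 3′ UTR (4.80% of those with a UTR) had a median log2 fold change of -0.35, and 22.8% of them fell past 2-fold against 10.3% of all genes with a 3′ UTR. The 2078 genes with either or both of the 7-base words but not the 8 bases (16.0%) had a median of -0.13. With only the inner 6 bases TCATGA, which read the same on both strands, the median was 0.02 in 1694 genes, and with none of these it was 0.04 in 8592 genes, of which 9.07% fell past 2-fold. Genes with the 8 bases once had a median of -0.35 and the 44 with 2 or more copies -0.55. Since the words were chosen on these values, the medians describe the ish libraries and test nothing. The ish2 libraries took no part in the choice, and there the medians of the same 4 classes were 0.07, 0.08, 0.04 and -0.002, so the holders were not lower under the other hairpin.

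UTR length goes with the class, at a median of 3528 bases for the 8-base holders and 882 for genes with none of the words. In 4 equal groups of genes by UTR length, from short to long, the 8-base holders had medians of -0.73, -0.71, -0.55 and -0.24, over 21, 71, 138 and 394 genes. Genes with no word had 0.04, 0.001, 0.07 and 0.11 in the same groups. In the coding region the 8 bases went with a smaller shift. The 451 genes that hold them there and no word in the 3′ UTR had a median of -0.08, against 0.05 for 8141 genes with the 8 bases in neither. The reverse complement TTCATGAT, among genes with no more than the 6 bases otherwise, was held by 323 genes with a median of 0.01. In the ranking of all words, however, TCATGAT, the reverse complement of ATCATGA, stood 7th lowest at -0.16. Its 1601 holders there were not separated from holders of the other words. The response to ish2 picked out other letters. Its lowest word was GAACGCA, held by 1.86% of the 3′ UTRs, and its 242 holders had a median of -0.11 with ish against -0.19 with ish2.

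Among human mature miRNAs of RefSeq (GRCh38.p14), 1 has a seed (bases 2 to 8) that pairs with either 7-base word. It is shown for its seed in capitals, and its level was not measured here.
hsa-miR-433-3p, chr14:100881949-100881970, plus strand: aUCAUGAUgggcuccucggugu

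**Figure D2:**
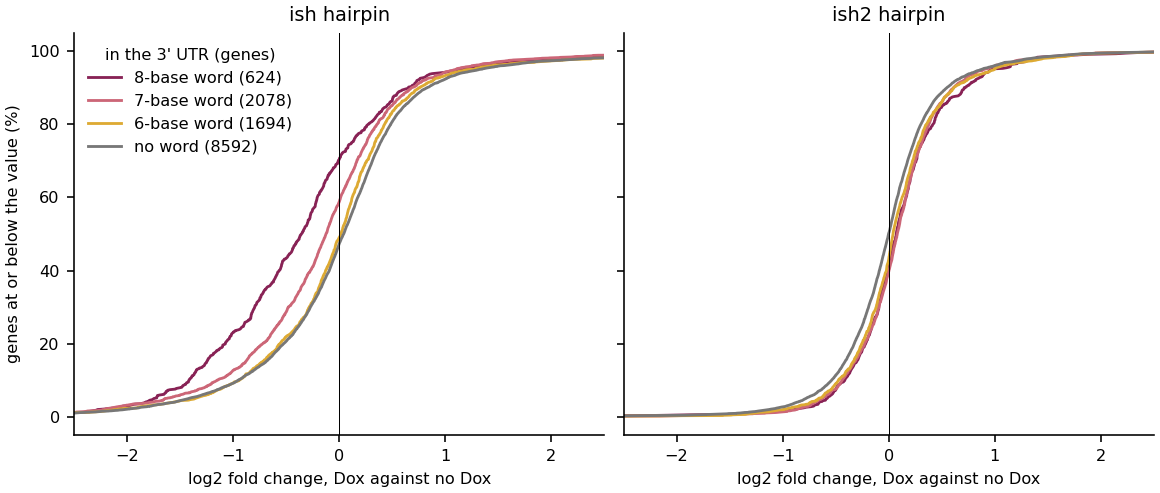
Cumulative share of genes in percent against the log2 fold change with Dox, for genes with the 8-base word, a 7-base word, only the 6-base word or none in the 3′ UTR, under ish (left) and ish2 (right). Under ish the 8-base curve is shifted to lower values, with a median of -0.35 against 0.04 for genes with no word, and under ish2 the curves lie close together.

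Of the 1336 genes with a 3′ UTR that fell past 2-fold, 142 held the 8 bases and 261 a 7-base word, together 30.2%, against 20.8% of all genes with a 3′ UTR, so most of the strongly lowered genes hold neither. Of the 921 that rose past 2-fold, 16.7% held one. Holders could rise too: ACTC1, the cardiac actin of developing muscle, holds the 8 bases and rose from 419.7 to 1943 CPM (2.21 ± 0.061). With holders of either 7-base word left out, 953 genes rose and 1190 fell past 2-fold. The sets described next are therefore given with and without those genes wherever the 2 medians lie more than 0.1 apart.

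Muscle regulators rose. Of 23 myogenic factors and partners tested, 19 rose, 8 of them past 2-fold, and 3 fell, with a median of 0.69 against -0.01 for all genes. MYOG, the factor that starts terminal differentiation, was at 110.4, 103 and 105 CPM without Dox and 663, 636 and 665 CPM with Dox. MYOD1, which commits cells to muscle, was at 114, 107 and 115 CPM without Dox and 345, 335 and 335 CPM with Dox. MEF2C, their partner at muscle promoters, was at 42.2, 40.4 and 41.0 CPM without Dox and 311, 312 and 317 CPM with Dox. The Dox libraries lay above the others for each, by 2.62 ± 0.069, 1.596 ± 0.030 and 2.93 ± 0.033. SMYD1, a methyltransferase of the myofibril, stood at 61.0, 54.7 and 59.6 CPM without Dox and 355, 320.1 and 341 CPM with Dox, and MYF6, the late myogenic factor, rose from 0.108 to 1.14 CPM (3.37 ± 0.36). KLHL40 and KLHL41, which stabilise thin filament proteins, rose by 3.33 ± 0.062 and 2.32 ± 0.029. The surface receptors CDON and BOC, which promote myogenesis at cell contacts, went the other way, from 413 to 100.2 CPM (-2.04 ± 0.027) and 120.2 to 47.4 CPM (-1.34 ± 0.033), and CDON holds a 7-base word.

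Progenitor factors moved in both directions, 8 higher and 9 lower of 20 tested, shares near those of all tested genes. Their median was -0.04, and -0.27 without word holders. PAX7, the satellite cell factor, was at 90.1, 88.8 and 93.9 CPM without Dox and 93.2, 89.9 and 89.2 CPM with Dox and did not pass the test. FGFR4, a receptor of the myogenic lineage, was at 446, 417 and 427 CPM without Dox and 216, 208 and 213 CPM with Dox (-1.02 ± 0.027). PAX3 fell by less than 2-fold (-0.40 ± 0.061), while CXCR4 rose by 1.39 ± 0.16. Of 28 repressors of differentiation, 18 fell and 9 rose, 5 and 3 of them past 2-fold. SOX9, a chondrogenic factor, fell from 6.78 to 1.30 CPM (-2.38 ± 0.13), MDFI, which binds and holds MyoD family proteins, from 31.9 to 9.26 CPM (-1.79 ± 0.059) and HEY1 from 432 to 189.9 CPM (-1.19 ± 0.025). ID1 was at 10.3, 11.6 and 10.8 CPM without Dox and 18.2, 21.8 and 18.4 CPM with Dox, ID3 at 76.9, 72.2 and 72.5 CPM without Dox and 98.7, 117 and 96.7 CPM with Dox and SNAI2 at 91.0, 90.4 and 92.0 CPM without Dox and 81.7, 83.0 and 86.0 CPM with Dox. The inhibitors of differentiation ID1 and ID3 rose, by 0.83 ± 0.082 and 0.49 ± 0.079, and SNAI2 fell by a small amount (-0.12 ± 0.031). HDAC9, a class IIa deacetylase that binds MEF2, rose from 2.86 to 25.5 CPM (3.15 ± 0.084) although it holds a 7-base word, and SNAI1 rose by 1.81 ± 0.086.

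Contractile genes had the highest medians of the sets described, taken over the tested members only. These too could have enough counts through a single group where they were high. In the myosin list, 6 of 25 genes had too few counts to be tested, and the median ran from 2.38 to 2.86 over the settings run. Of 19 myosins and myosin-binding genes of the sarcomere tested, 17 rose, 16 of them past 2-fold, and 1 fell, with a median of 2.81, and none of the 19 holds a 7-base or 8-base word. MYH3, the embryonic heavy chain, was at 74.8, 62.3 and 68.5 CPM without Dox and 686, 626 and 678 CPM with Dox (3.28 ± 0.052). MYL1, an essential light chain of fast fibres, was at 113, 105 and 111 CPM without Dox and 598, 547 and 572 CPM with Dox (2.38 ± 0.043). Perinatal MYH8 rose from 6.82 to 81.7 CPM (3.58 ± 0.059), slow MYH7 from 0.138 to 4.97 CPM (5.12 ± 0.22) and adult fast MYH2 from 0.718 to 6.99 CPM (3.28 ± 0.17), so embryonic, perinatal, slow and fast heavy chains all rose. These heavy chain genes are close relatives, and how reads shared between them were counted is not known. MYH14, which is a myosin of non-muscle cells placed in this list, fell from 65.2 to 22.4 CPM (-1.55 ± 0.039).

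Of 18 thin filament genes 13 rose, 10 past 2-fold, and 3 fell, median 1.68. TNNT3, the fast troponin T, was at 4.97, 3.89 and 4.53 CPM without Dox and 17.1, 13.4 and 16.4 CPM with Dox, and ACTC1 at 436, 395 and 427 CPM without Dox and 2028, 1869 and 1931 CPM with Dox. TNNT2, the troponin T of heart and embryonic muscle, rose from 40.5 to 606 CPM (3.90 ± 0.080), and TNNI1 from 93.7 to 673 CPM (2.84 ± 0.052). The adult skeletal actin ACTA1 stayed low, at 0.626, 0.574 and 0.435 CPM without Dox and 1.31, 0.797 and 0.954 CPM with Dox, and rose by 0.91 ± 0.26. TPM3, TPM4 and TNNI3 were the 3 that fell, at -0.62 ± 0.027, -0.59 ± 0.024 and -1.96 ± 0.15. Of 34 titin, Z-disc and M-band genes 32 rose, 23 past 2-fold, and 2 fell, median 1.97 and 2.09 without word holders. TTN, the giant spring of the sarcomere, was at 32.99, 26.2 and 26.6 CPM without Dox and 412, 376 and 433 CPM with Dox. ACTN2, the Z-disc cross-linker, was at 46.2, 40.9 and 44.9 CPM without Dox and 476, 454 and 476 CPM with Dox, and NEB, the ruler of thin filaments, at 397, 361 and 352 CPM without Dox and 1262, 1155 and 1337 CPM with Dox. None of these overlapped between groups, and their folds were 3.83 ± 0.091, 3.41 ± 0.036 and 1.76 ± 0.10. The M-band genes MYOM1 and MYOM3 rose by 3.71 ± 0.066 and 3.86 ± 0.065, and FHL1 and HSPB8 fell, at -0.71 ± 0.031 and -0.19 ± 0.058.

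Calcium handling was uneven: of 32 genes tested, 26 rose, 15 past 2-fold, and 4 fell, median 0.73 and 1.07 without word holders. CACNA1S, the voltage sensor of the triad, was at 3.13, 2.84 and 2.30 CPM without Dox and 51.2, 45.3 and 48.7 CPM with Dox (4.14 ± 0.073). RYR1, the calcium release channel, was at 286, 267 and 265 CPM without Dox and 596, 559.8 and 593 CPM with Dox (1.10 ± 0.031), and ATP2A1, the fast fibre calcium pump, at 95.7, 81.7 and 85.1 CPM without Dox and 129, 131 and 128 CPM with Dox (0.56 ± 0.043). CASQ2, which buffers calcium in the sarcoplasmic reticulum, and TRDN, a protein of its membrane, rose by 4.66 ± 0.22 and 4.48 ± 0.19 from under 1 CPM. CHRNA1, the acetylcholine receptor subunit, was at 1019.5, 989 and 989.8 CPM without Dox and 868, 792 and 812 CPM with Dox and fell, at -0.28 ± 0.026. The voltage sensor rose far more than the pump, and the receptor subunit did not rise.

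For fusion, MYMK (TMEM8C in the table), the membrane protein of myoblast fusion, was at 5.597, 5.11 and 5.15 CPM without Dox and 31.1, 30.5 and 31.3 CPM with Dox (2.55 ± 0.065), and its partner MYMX had too few counts to be tested. CAV3, of the muscle caveola, rose from 4.27 to 65.6 CPM (3.94 ± 0.065). CDH2, a cadherin at myoblast contacts, fell from 439.7 to 151 CPM (-1.55 ± 0.038), while CDH15, the muscle cadherin, rose from 188 to 377 CPM (1.00 ± 0.030). Over the 29 fusion and repair genes tested, 15 rose and 11 fell, with a median of 0.17. Of 34 costamere genes, 23 rose, 8 past 2-fold, and 10 fell, median 0.43. PGM5, a costamere protein, stood at 0.461, 0.287 and 0.373 CPM without Dox and 30.3, 31.4 and 30.04 CPM with Dox, and ABLIM3, an actin-binding LIM protein, at 0.988, 1.12 and 0.652 CPM without Dox and 62.5, 59.4 and 57.3 CPM with Dox. These were nearly silent without Dox, and their folds, 6.34 ± 0.11 and 6.02 ± 0.091, were the largest rises of any gene in the lists. SGCA, the muscle sarcoglycan, was at 4.58, 3.86 and 4.38 CPM without Dox and 41.8, 43.6 and 43.0 CPM with Dox (3.32 ± 0.066) and DES rose by 0.82 ± 0.027. VIM, the intermediate filament of undifferentiated cells, was at 1467, 1501 and 1477 CPM without Dox and 753, 788 and 745 CPM with Dox (-0.96 ± 0.026).

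Of 40 metabolic isozymes and their partners, 25 rose, 10 past 2-fold, and 11 fell, median 0.37. CKM, the muscle creatine kinase, was at 22.0, 20.6 and 23.9 CPM without Dox and 231, 207 and 229.7 CPM with Dox, and its brain counterpart CKB at 228, 209 and 212 CPM without Dox and 487, 484 and 483 CPM with Dox. Both rose, CKM by 3.33 ± 0.053 and CKB by 1.17 ± 0.040. ENO3, the muscle enolase, was at 105, 99.7 and 101 CPM without Dox and 155, 139.7 and 148 CPM with Dox (0.53 ± 0.032), LDHA at 589, 564 and 566 CPM without Dox and 349, 348 and 343 CPM with Dox (-0.72 ± 0.068) and COX6A2, a subunit of cytochrome oxidase in muscle, at 0.527, 0.734 and 0.714 CPM without Dox and 3.28, 3.99 and 3.85 CPM with Dox (2.48 ± 0.17). The fatty acid transporter CD36 rose from 2.09 to 24.5 CPM (3.54 ± 0.10) and myoglobin, MB, from 1.80 to 9.89 CPM (2.46 ± 0.12). Among 29 myosins, actins and actin-binding proteins of cells outside muscle, 20 fell and 8 rose, 2 of each past 2-fold, median -0.30. FSCN1, which bundles actin in protrusions, fell from 1271 to 397 CPM (-1.68 ± 0.026), MYH9 from 567 to 258 CPM (-1.13 ± 0.026) and ACTG1 from 2180.0 to 1422 CPM (-0.62 ± 0.025). Of these, MYH9 holds the 8 bases in its 3′ UTR. CFL2, the muscle cofilin, rose by 1.34 ± 0.029.

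**Figure D3:**
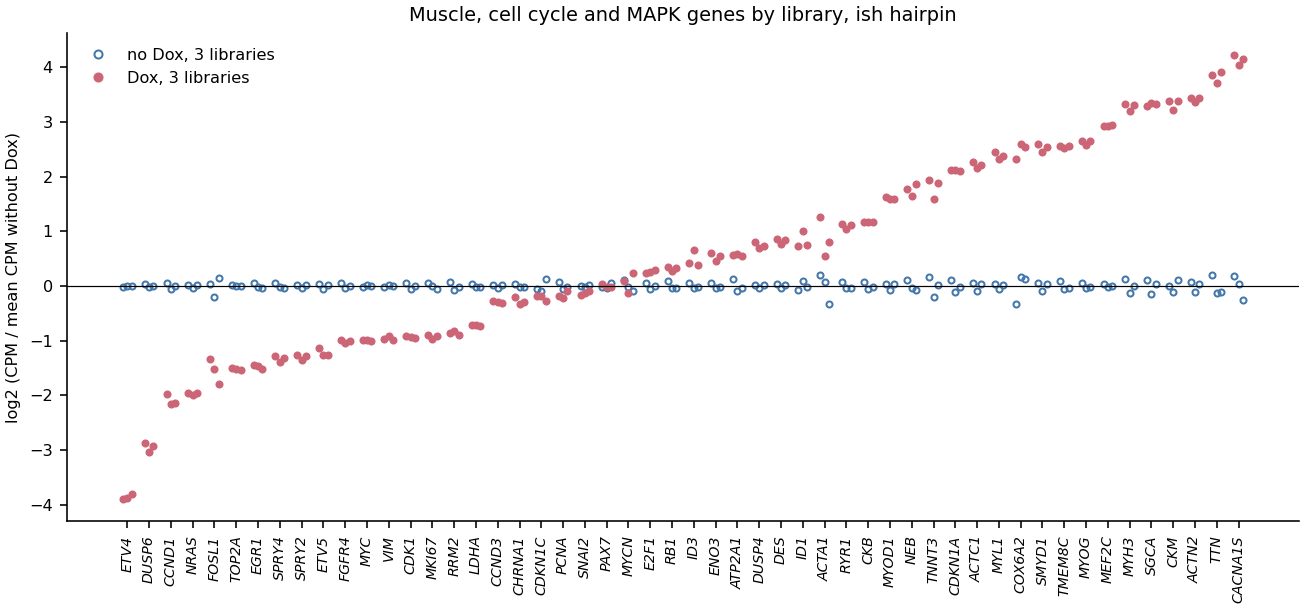
Log2 of each library's CPM over the mean without Dox, for 52 genes of the muscle, cell cycle and MAPK lists ordered by fold change, with open blue circles for the 3 libraries without Dox and filled red circles for the 3 with Dox. ETV4 and DUSP6 lie at the low end, CACNA1S and TTN at the high end, and the 3 libraries of a group lie close together for most genes. TMEM8C is MYMK.

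Genes of mitosis and replication fell. All 38 mitosis genes fell, 21 past 2-fold, with a median of -1.05. MKI67, the proliferation antigen, was at 606, 583 and 565 CPM without Dox and 312, 300.0 and 311 CPM with Dox, TOP2A, the topoisomerase of dividing cells, at 869.6, 855 and 859 CPM without Dox and 305, 299.6 and 297 CPM with Dox, and CDK1 at 188, 173 and 180.4 CPM without Dox and 95.5, 93.8 and 93.5 CPM with Dox. The Dox libraries were lower for each, at -0.93 ± 0.058, -1.52 ± 0.026 and -0.94 ± 0.035. CCNB2 fell, at -1.80 ± 0.046 and HMMR at -1.66 ± 0.043. Of 35 replication genes 31 fell, but only 2 past 2-fold, median -0.43. RRM2, of ribonucleotide reductase, was at 251, 228 and 237 CPM without Dox and 131, 135 and 128 CPM with Dox (-0.86 ± 0.064), and PCNA, the replication clamp, at 89.1, 81.0 and 83.7 CPM without Dox and 74.6, 72.7 and 78.8 CPM with Dox, which did not pass the test. GINS2 and TYMS were those past 2-fold, -1.37 ± 0.053 and -1.03 ± 0.067. With ish2 the medians were -0.40 for mitosis and -0.47 for replication.

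CDK inhibitors did not move one way, 10 higher and 10 lower of 24, shares near those of all tested genes. CDKN1A, the p21 inhibitor induced in differentiating muscle, was at 115, 98.1 and 105 CPM without Dox and 461, 457 and 451 CPM with Dox (2.11 ± 0.067), and RB1 at 49.9, 45.4 and 45.5 CPM without Dox and 59.5, 56.6 and 59.1 CPM with Dox (0.32 ± 0.039). CDKN1C was at 4.48, 4.37 and 5.09 CPM without Dox and 4.07, 4.09 and 3.85 CPM with Dox, a difference that did not pass the test, and CCND3, a cyclin kept in differentiated muscle, at 466, 448 and 466 CPM without Dox and 380.4, 374 and 371 CPM with Dox (-0.29 ± 0.025). GADD45G rose from 2.28 to 25.8 CPM (3.49 ± 0.092), and CDKN2B, which holds the 8 bases, fell from 37.4 to 8.09 CPM (-2.21 ± 0.10). Among 24 G1 cyclins, CDKs and E2F genes 16 fell and 7 rose, median -0.43, or -0.26 without word holders. CCND1 was at 239, 223 and 232 CPM without Dox and 58.7, 52.1 and 52.8 CPM with Dox and MYC at 170.1, 174 and 170.3 CPM without Dox and 86.4, 86.0 and 85.6 CPM with Dox. Their folds were -2.09 ± 0.040 and -0.997 ± 0.030, and neither holds a word in its 3′ UTR. CCND2 rose from 90.7 to 232 CPM (1.36 ± 0.047), E2F1 was at 78.5, 73.3 and 75.4 CPM without Dox and 88.9, 90.4 and 92.4 CPM with Dox (0.26 ± 0.041), and MYCN, at 7.70, 7.05 and 6.68 CPM without Dox and 7.65, 6.55 and 8.40 CPM with Dox, did not pass the test.

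Genes that ERK signalling switches on fell together. Of 29 feedback regulators and ETS factors tested, 25 fell, 19 past 2-fold, and 2 rose, with a median of -1.34 (-1.33 without word holders). DUSP6, the phosphatase that removes phosphate from ERK, was at 1438, 1390.3 and 1406 CPM without Dox and 192, 173 and 185 CPM with Dox. ETV4, an ETS factor downstream of FGF and ERK, was at 166, 167 and 168 CPM without Dox and 11.2, 11.3 and 11.97 CPM with Dox, and ETV5 at 158, 148 and 155 CPM without Dox and 70.4, 64.1 and 64.3 CPM with Dox. The Dox libraries lay far below the others for DUSP6 (-2.95 ± 0.031) and ETV4 (-3.86 ± 0.046) and less far for ETV5 (-1.21 ± 0.034). The Sprouty inhibitors SPRY2 and SPRY4 were at 273, 260.4 and 273 CPM without Dox and 112, 105 and 110.1 CPM with Dox and at 458, 434 and 428 CPM without Dox and 182, 167 and 177 CPM with Dox, and EGR1, an immediate early factor, at 125, 119.6 and 118 CPM without Dox and 44.4, 44.1 and 42.2 CPM with Dox. These fell by more than 2-fold, -1.30 ± 0.028, -1.33 ± 0.035 and -1.47 ± 0.034. DUSP4, a nuclear phosphatase of the same family, was at 43.6, 41.6 and 43.6 CPM without Dox and 75.2, 69.4 and 71.3 CPM with Dox and rose by 0.74 ± 0.038. With ish2 the list's median was 0.27.

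Of 26 AP-1 and immediate early genes 19 fell, 11 past 2-fold, and 5 rose, median -0.67. FOSL1 was at 9.12, 7.72 and 9.84 CPM without Dox and 3.51, 3.09 and 2.55 CPM with Dox (-1.55 ± 0.10), and FOS fell from 8.04 to 2.99 CPM (-1.43 ± 0.10), while JUN rose from 36.9 to 59.0 CPM (0.67 ± 0.043) and KLF2 from 12.4 to 29.4 CPM (1.24 ± 0.055). In the cascade itself 14 of 27 genes rose and 11 fell, 1 and 7 past 2-fold, median 0.14. NRAS, which carries an activating mutation in RD cells, was at 134, 129.7 and 134 CPM without Dox and 34.3, 33.1 and 34.0 CPM with Dox (-1.97 ± 0.031) and holds a 7-base word. MAP2K1, the kinase MEK1, fell from 676 to 129.7 CPM (-2.38 ± 0.030), with no word in its 3′ UTR. RPS6KA3, a kinase downstream of ERK that holds the 8 bases, fell from 125 to 55.0 CPM (-1.19 ± 0.030). MRAS, a RAS relative of muscle, rose from 18.7 to 178 CPM (3.25 ± 0.039), and MAP2K2, the kinase MEK2, from 123 to 164 CPM (0.42 ± 0.029).

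Growth factors and receptor tyrosine kinases split into 20 lower, 8 higher and 6 not called, median -0.48. EGFR was at 33.6, 36.1 and 36.5 CPM without Dox and 26.4, 26.2 and 26.6 CPM with Dox (-0.42 ± 0.047) and PDGFRB at 6.72, 7.72 and 7.02 CPM without Dox and 3.22, 3.12 and 3.14 CPM with Dox (-1.18 ± 0.10), and PDGFRA had too few counts to be tested. FGF1, a holder of the 8 bases, fell from 17.1 to 3.50 CPM (-2.29 ± 0.10), AXL from 74.6 to 24.3 CPM (-1.62 ± 0.060) and BDNF from 47.3 to 15.9 CPM (-1.57 ± 0.044), while ERBB3 rose from 190.1 to 647 CPM (1.77 ± 0.045). In the IGF axis 11 of 16 genes fell and 3 rose, median -0.58. IGF2, a growth factor expressed in rhabdomyosarcoma, was at 756, 802 and 773 CPM without Dox and 182, 174 and 178 CPM with Dox (-2.12 ± 0.029). The binding proteins differed in direction. IGFBP3 was at 38.7, 31.7 and 36.6 CPM without Dox and 95.4, 85.5 and 93.5 CPM with Dox (1.36 ± 0.063) and IGFBP5 at 44.9, 45.0 and 49.4 CPM without Dox and 61.4, 58.3 and 57.5 CPM with Dox (0.35 ± 0.039), whereas IGFBP2 fell from 478 to 179.7 CPM (-1.41 ± 0.027).

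Chemokines and cytokines had the lowest median of the sets, -2.19 (-2.29 without word holders): 15 of 20 tested fell, 14 past 2-fold, and 2 rose. The other 21 of the 41 listed had too few counts to be tested. A gene could have enough counts through a single group where it was high, so the median describes the tested members only. CCL2, which draws monocytes, was at 119.5, 123 and 120.2 CPM without Dox and 0.788, 1.03 and 1.17 CPM with Dox, a log2 fold change of -6.91 ± 0.10 (edgeR adjusted p = 1.21e-20). CXCL8, which draws neutrophils, was at 17.0, 16.3 and 14.7 CPM without Dox and 0.820, 0.532 and 1.08 CPM with Dox (-4.28 ± 0.14). IL6 was low in all libraries, at 0.296, 0.160 and 0.404 CPM without Dox and 0.131, 0.0332 and 0.0615 CPM with Dox (-1.88 ± 0.53). No Dox library reached the no-Dox range for CCL2 or CXCL8. LIF fell from 26.4 to 2.88 CPM (-3.19 ± 0.13), CXCL16 from 18.3 to 2.17 CPM (-3.08 ± 0.091) and CCL5 from 5.84 to 1.05 CPM (-2.48 ± 0.15), and IL34, a ligand of the CSF1 receptor, rose from 1.75 to 6.09 CPM (1.80 ± 0.13). With ish2 the list's median was 0.96, in the other direction.

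Of 24 NF-kB factors and targets tested, 12 fell, 5 past 2-fold, and 7 rose, median -0.22. NFKB1, a subunit of the factor, was at 44.6, 46.8 and 45.4 CPM without Dox and 54.9, 56.0 and 54.5 CPM with Dox, NFKBIA, the inhibitor that NF-kB induces, at 14.2, 14.04 and 12.8 CPM without Dox and 18.4, 18.8 and 15.2 CPM with Dox, and TNFAIP3 at 3.56, 3.61 and 4.69 CPM without Dox and 3.28, 3.95 and 3.17 CPM with Dox. NFKB1 and NFKBIA rose, by 0.27 ± 0.036 and 0.35 ± 0.071, and TNFAIP3 did not pass the test. ICAM1, an adhesion molecule and NF-kB target, was at 28.8, 31.1 and 29.3 CPM without Dox and 4.17, 3.99 and 4.43 CPM with Dox (-2.82 ± 0.069), IL1RAP, a co-receptor for IL-1 that holds a 7-base word, fell from 78.0 to 7.29 CPM (-3.42 ± 0.062), and TRIL, an accessory protein of Toll-like receptors, from 510.1 to 55.2 CPM (-3.21 ± 0.035).

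Interferon-stimulated genes were lower, 24 of 39, with 9 past 2-fold, and 9 were higher, median -0.55. IFIT1, which binds foreign RNA, was at 225, 241 and 235 CPM without Dox and 46.7, 46.6 and 47.3 CPM with Dox (-2.32 ± 0.033) and ISG15 at 107, 116 and 115 CPM without Dox and 51.6, 56.9 and 55.1 CPM with Dox (-1.04 ± 0.043). STAT2 rose by 0.55 ± 0.027. All 28 genes of MHC class I and antigen processing were called, 22 lower, 8 of them past 2-fold, and 6 higher, median -0.59. HLA-B fell from 41.9 to 16.6 CPM (-1.34 ± 0.050), the peptide transporter TAP1 from 16.2 to 6.65 CPM (-1.29 ± 0.070) and ULBP1, a ligand of the NKG2D receptor, from 45.1 to 8.65 CPM (-2.38 ± 0.17). HLA genes are near-copies of each other, so how reads were shared between them is uncertain.

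Of 32 genes of the integrated stress response 21 fell, 10 past 2-fold, and 5 rose, median -0.60, or -0.38 without word holders. DDIT4 was at 269, 245 and 256 CPM without Dox and 59.1, 58.7 and 60.9 CPM with Dox (-2.11 ± 0.033), DDIT3, or CHOP, at 56.6, 50.5 and 52.7 CPM without Dox and 25.4, 25.9 and 26.0 CPM with Dox (-1.05 ± 0.055) and GDF15 at 46.1, 49.1 and 49.7 CPM without Dox and 16.0, 14.4 and 14.6 CPM with Dox (-1.69 ± 0.17). ATF4, the factor that drives them, rose slightly (0.29 ± 0.028), and ASNS, an ATF4 target, was at 387, 379.8 and 397 CPM without Dox and 364, 371 and 366 CPM with Dox and did not pass the test. Hypoxia and glycolysis genes were 21 lower and 6 higher of 31, median -0.55, or -0.44 without word holders. HK2 was at 64.1, 61.1 and 61.0 CPM without Dox and 23.0, 23.9 and 23.6 CPM with Dox (-1.40 ± 0.047) and SLC2A1 at 63.2, 54.4 and 57.3 CPM without Dox and 34.2, 35.7 and 34.2 CPM with Dox (-0.75 ± 0.062). ANGPTL4 fell, at -3.73 ± 0.21 and SLC2A3 at -1.74 ± 0.034, whereas EGLN3, an oxygen-sensing hydroxylase, rose from 0.787 to 12.5 CPM (3.99 ± 0.14).

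Cholesterol synthesis genes rose, 21 of 30, 8 past 2-fold, with 3 lower and a median of 0.52. HMGCS1, an early step of the pathway, was at 197, 186 and 191 CPM without Dox and 335, 339 and 335 CPM with Dox, and SQLE, the squalene epoxidase, at 214, 191 and 204 CPM without Dox and 414, 401 and 404 CPM with Dox. The groups did not overlap, and the folds were 0.81 ± 0.041 and 1.00 ± 0.032. MVK and MVD, of the mevalonate pathway, rose by 1.49 ± 0.053 and 1.38 ± 0.043, while SREBF2, the factor that controls the pathway, fell slightly (-0.15 ± 0.025).

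Collagens, integrins and laminins moved in both directions. COL4A1, of the basement membrane network, was at 1682, 1724 and 1693 CPM without Dox and 390.4, 376 and 386 CPM with Dox (-2.15 ± 0.024), and COL4A2 fell from 1257 to 343 CPM (-1.87 ± 0.027). The laminin chains LAMC1, LAMB1, LAMA5 and LAMA1 fell, at -2.42 ± 0.029, -1.99 ± 0.032, -1.92 ± 0.030 and -2.63 ± 0.057. COL4A1 and LAMC1 hold a 7-base word, COL4A2 holds only the inner 6 bases, and LAMB1, LAMA5 and LAMA1 hold none. COL3A1, a fibrillar collagen, was at 3577, 3511 and 3484 CPM without Dox and 4925, 5072 and 4886 CPM with Dox (0.49 ± 0.021), and COL1A1 at 169, 175 and 168 CPM without Dox and 108, 113 and 108 CPM with Dox (-0.64 ± 0.032). Of 28 collagens 14 fell and 9 rose, median -0.38, or -0.26 without word holders. Of 28 integrins and laminins 14 fell, 10 past 2-fold, and 10 rose, and ITGA3, at 34.5, 34.7 and 35.5 CPM without Dox and 35.7, 31.7 and 34.5 CPM with Dox, did not pass the test.

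Among 42 matrix glycoproteins and remodelling genes 27 fell, 13 past 2-fold, and 14 rose, 8 past 2-fold, median -0.40. PLAU, a plasminogen activator, fell from 256 to 43.1 CPM (-2.57 ± 0.033). THBS1 was at 37.2, 33.5 and 35.1 CPM without Dox and 105, 96.0 and 99.3 CPM with Dox (1.504 ± 0.044), TNC at 1227, 1192 and 1206 CPM without Dox and 2245, 2143 and 2199 CPM with Dox (0.86 ± 0.024) and FN1 at 1919, 1905 and 1841 CPM without Dox and 2129.8, 2061 and 2058 CPM with Dox (0.14 ± 0.026). MMP15, a membrane metalloprotease, rose from 3.77 to 26.1 CPM (2.79 ± 0.081).

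Signalling pathways changed in parts. Of all tested genes 39.1% rose and 39.5% fell, 7.28% and 10.5% past 2-fold. Several of the counts from here to the apoptosis genes lie near the first 2 shares and give no direction. Of 30 YAP and TEAD genes, a list that includes NT5E, 15 fell and 14 rose, 9 and 4 past 2-fold, median -0.03 and 0.09 without word holders. YAP1 fell from 139 to 35.3 CPM (-1.98 ± 0.032) and holds a 7-base word. CYR61 (CCN1) was at 31.4, 29.8 and 29.1 CPM without Dox and 13.3, 12.9 and 12.8 CPM with Dox (-1.21 ± 0.051) and CTGF (CCN2) at 41.4, 38.1 and 41.4 CPM without Dox and 8.89, 8.87 and 9.08 CPM with Dox (-2.17 ± 0.055). Both of these targets fell, while TEAD4 rose by 0.85 ± 0.030 and ANKRD1, another target, by 0.70 ± 0.053. In the NOTCH pathway 12 of 25 genes fell and 9 rose, median -0.39, which was -0.19 without replicate 1 with Dox, -0.22 without replicate 1 without Dox and -0.21 with the 6 ish libraries fitted alone. NOTCH3 was at 589.8, 582 and 579.6 CPM without Dox and 405, 399.5 and 395 CPM with Dox (-0.55 ± 0.024) and its ligand JAG1 at 69.2, 71.0 and 69.1 CPM without Dox and 48.6, 49.3 and 49.2 CPM with Dox (-0.51 ± 0.035). HEY1, a NOTCH target named above, was at 433, 423 and 440.1 CPM without Dox and 189, 189 and 192 CPM with Dox.

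In the WNT pathway 13 rose and 13 fell of 29, with extremes on both sides. WNT5A fell from 81.0 to 8.68 CPM (-3.22 ± 0.055) and LGR5 from 63.0 to 8.04 CPM (-2.97 ± 0.054), while the receptor FZD8 rose from 0.235 to 3.06 CPM (3.68 ± 0.23). AXIN2, a general target of the pathway, was at 8.95, 9.80 and 9.32 CPM without Dox and 13.3, 14.4 and 12.8 CPM with Dox (0.53 ± 0.074) and LEF1 at 0.691, 0.542 and 0.776 CPM without Dox and 1.12, 1.16 and 1.14 CPM with Dox (0.76 ± 0.25). Of 32 TGF-beta and BMP genes 16 fell and 11 rose, median -0.54, but -0.03 with the 6 ish libraries fitted alone. TGFB2 was at 3.36, 2.84 and 2.89 CPM without Dox and 19.98, 17.7 and 18.4 CPM with Dox (2.63 ± 0.083), TGFB1 fell from 83.1 to 27.7 CPM (-1.58 ± 0.038) and TGFBR2 rose from 185 to 451 CPM (1.29 ± 0.027). SMAD7, a feedback inhibitor, was at 6.58, 7.02 and 6.40 CPM without Dox and 3.94, 3.92 and 3.54 CPM with Dox (-0.81 ± 0.10). The hedgehog targets GLI1, at 15.1, 14.1 and 14.7 CPM without Dox and 5.97, 6.15 and 5.66 CPM with Dox, and PTCH1, at 57.7, 57.9 and 58.2 CPM without Dox and 41.5, 41.7 and 41.9 CPM with Dox, both fell, at -1.30 ± 0.084 and -0.47 ± 0.035, within a list of 12 with 6 lower and 5 higher, median -0.12 and 0.05 without word holders.

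Of 30 cAMP and CREB genes 13 fell and 9 rose, and PDE4D, which breaks down cAMP and holds a 7-base word, was at 140.0, 130.4 and 134 CPM without Dox and 40.4, 39.5 and 40.0 CPM with Dox (-1.76 ± 0.037). Of 22 splicing factors 12 fell and 8 rose, median -0.09 and 0.12 without word holders. RBM24, a factor of muscle exons, was at 99.2, 88.8 and 99.8 CPM without Dox and 258, 239 and 251 CPM with Dox (1.38 ± 0.036) and RBFOX2 at 434, 423 and 426 CPM without Dox and 808, 788 and 813 CPM with Dox (0.91 ± 0.025). MBNL1, which holds a 7-base word, was at 131, 125 and 129 CPM without Dox and 71.6, 69.9 and 72.9 CPM with Dox (-0.84 ± 0.030). In the RNA interference machinery 7 of 15 genes rose and 6 fell, only 1 past 2-fold, median -0.04 and 0.07 without word holders. It was DICER1, which cuts small RNAs from their precursors and holds a 7-base word, at 165, 173 and 165 CPM without Dox and 66.8, 64.1 and 68.4 CPM with Dox (-1.33 ± 0.033), while AGO2, which loads them, was at 52.1, 54.2 and 52.5 CPM without Dox and 51.6, 47.9 and 51.2 CPM with Dox and did not pass the test. Of 26 apoptosis genes 12 rose and 11 fell, median -0.04. BCL2L11, or BIM, was at 36.4, 35.9 and 36.1 CPM without Dox and 91.5, 85.1 and 89.4 CPM with Dox (1.30 ± 0.039), the survival gene BCL2L1 rose by 1.11 ± 0.041 and BIRC5 fell, at -1.21 ± 0.036.

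**Figure D4:**
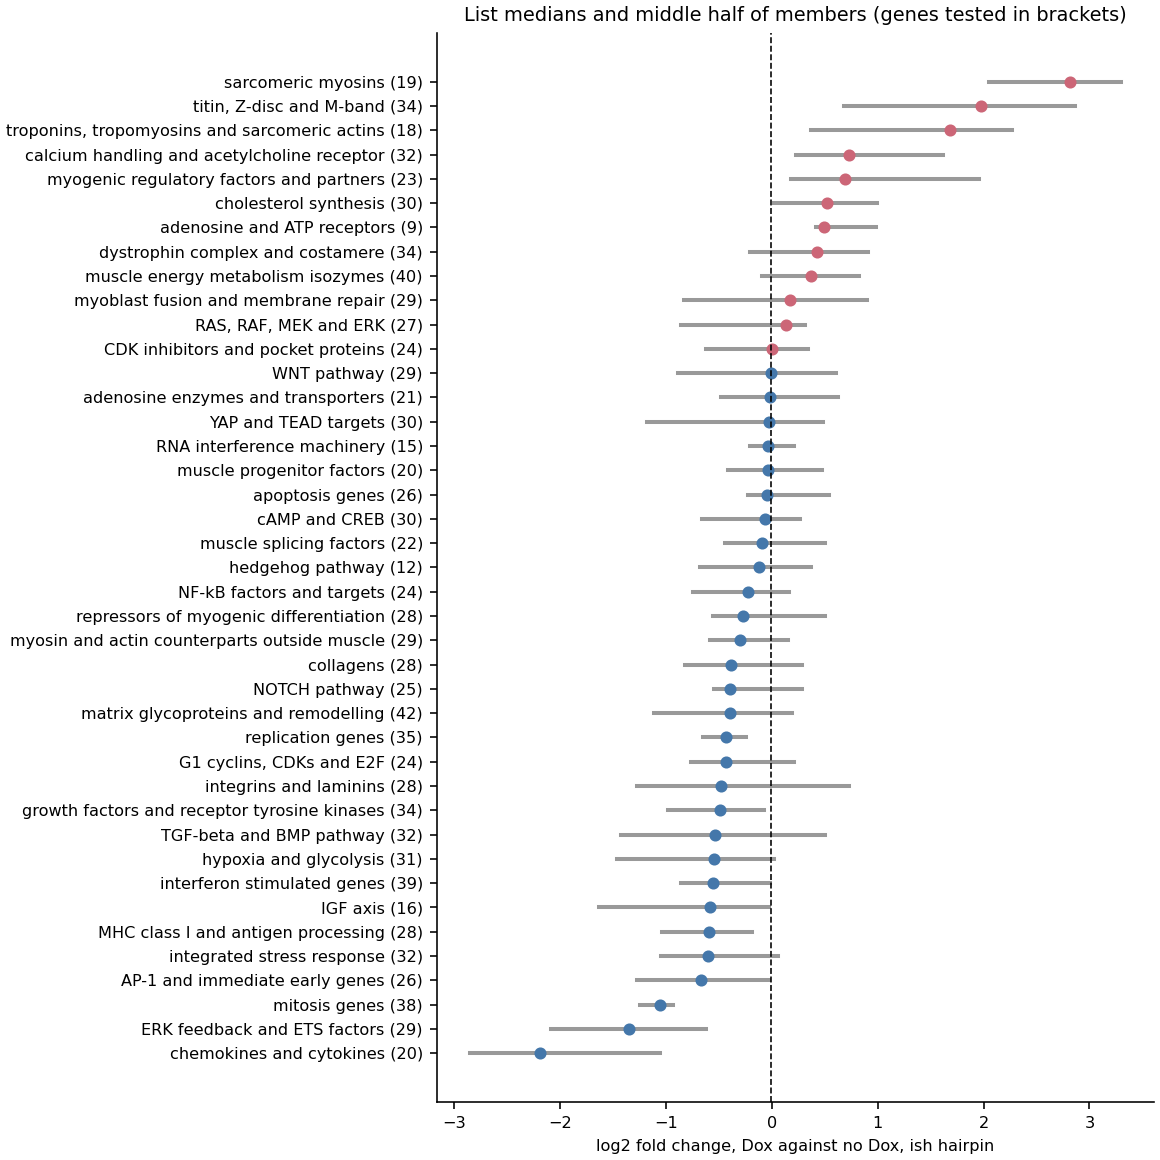
Median (point) and 25th to 75th percentile (bar) of the log2 fold change with Dox under ish, for the tested genes of 41 lists, with the number tested in brackets and a dashed line at the median of all tested genes. Sarcomeric myosins lie highest, at 2.81, and chemokines and cytokines lowest, at -2.19.

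Outside the lists, the 12 largest rises among genes that reached 5 CPM were those of DEPTOR, RXRG, DHRS7C, DLG2, BEST3, PEG3, ARPP21, HHATL, CEACAM16, SLC44A3, NPNT and APOBEC2. DEPTOR, an inhibitor of the kinase mTOR, was at 0.922, 0.989 and 0.652 CPM without Dox and 27.6, 29.1 and 29.5 CPM with Dox (5.07 ± 0.10). NPNT, a matrix ligand of integrin alpha 8, was at 14.3, 12.96 and 14.8 CPM without Dox and 291, 260.0 and 287 CPM with Dox (4.32 ± 0.049), and ARPP21, a regulator of calmodulin signalling, at 6.72, 5.42 and 6.49 CPM without Dox and 150.0, 138 and 148 CPM with Dox (4.55 ± 0.054). None of these groups overlapped. RXRG, a retinoid receptor of muscle, rose by 4.96 ± 0.20, and APOBEC2, a muscle member of its deaminase family, by 4.27 ± 0.079.

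The 12 largest falls outside the lists were those of UNC5D, VGF, VMO1, IL27RA, ACOT12, COL26A1, EMB, EMP1, TLL2, PDE9A, PALM3 and KISS1. UNC5D, a netrin receptor, was at 34.0, 38.8 and 38.1 CPM without Dox and 1.05, 1.03 and 1.66 CPM with Dox (-4.87 ± 0.11). TLL2, a protease that activates matrix proteins and growth factors, was at 592, 583 and 577 CPM without Dox and 49.98, 50.4 and 49.8 CPM with Dox (-3.54 ± 0.034), and COL26A1 at 286, 308 and 304 CPM without Dox and 21.5, 23.1 and 21.6 CPM with Dox (-3.76 ± 0.037). The libraries with Dox lay more than 10-fold below the others for all 3. VGF, a secreted neuropeptide precursor, fell, at -4.52 ± 0.22, and EMP1, an epithelial membrane protein, at -3.66 ± 0.13.

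The response to ish differed from that to ish2 for most genes. A test of the difference itself, in the same edgeR fit, called 11039 of 15206 genes (72.6%), 1290 of them higher in ish past 2-fold (8.48%) and 1957 lower (12.9%). Of the 1107 genes that rose past 2-fold with ish, 942 differed between constructs, 936 of them with the higher log2 fold change in ish. Of the same 1107, 315 were called higher and 313 lower with ish2, against 33.9% and 31.1% of all tested genes. Of the 1594 that fell, 1490 differed, 1489 of them with the lower log2 fold change in ish, and ish2 called 467 lower and 654 higher. The genes past 2-fold higher in both numbered 87, which is 7.86% of the ish genes and 14.7% of the ish2 genes (3.88% of tested genes rose past 2-fold with ish2 and 2.26% fell). For genes past 2-fold lower in both it was 48, or 3.01% and 14%. More genes passed 2-fold in opposite directions. Those higher with ish and lower with ish2 numbered 103, or 9.3% of the ish genes and 30% of the ish2 genes. Those lower with ish and higher with ish2 numbered 181, or 11.4% and 30.7%. Each construct's fold is taken against its own controls, while the gene filter, the TMM scaling and the estimate of the spread are shared by all 12 libraries.

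MYOG moved in opposite directions: with ish2 it was at 73.4, 81.5 and 93.9 CPM without Dox and 18.5, 17.7 and 16.5 CPM with it (-2.24 ± 0.10), opposite to ish, a difference of 4.87 ± 0.12 (edgeR adjusted p = 7.48e-11). DUSP6 with ish2 was at 1552, 1576 and 1493 CPM without Dox and 1850.2, 1836 and 1889 CPM with it (0.27 ± 0.028), and CCL2 at 143, 144 and 124 CPM without Dox and 156, 159 and 166 CPM with it (0.23 ± 0.045). The 8 genes that ish raised most against ish2 were PGM5, ABLIM3, CASQ2, PEG3, CEACAM16, ITGB2, GADD45G and MYH8. Among those lowered most were C3AR1, FRG2, CCL2, VGF, EMP1, IL27RA and SOX9. SOX9 with ish2 was at 8.16, 7.28 and 6.69 CPM without Dox and 48.3, 50.3 and 49.8 CPM with it (2.74 ± 0.064), rising there and falling with ish. The sarcomeric myosins had a median of -0.39 with ish2 against 2.81 with ish. NT5E fell less with ish2, so the 2 constructs differ in the depth of the knockdown as well as in the hairpin, and these cannot be told apart.

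**Figure D5:**
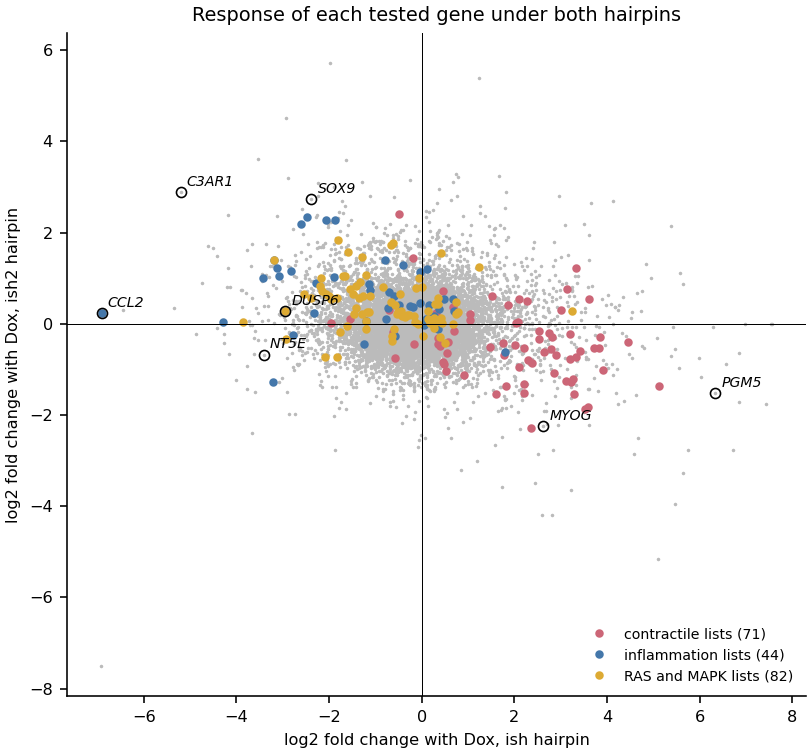
Log2 fold change with Dox under ish (x axis) against ish2 (y axis) for each tested gene, with the contractile (71 genes), inflammation (44) and RAS and MAPK (82) lists coloured and 7 genes ringed and named. Contractile genes lie mostly to the right and slightly below 0 on the y axis, and CCL2 lies at -6.91 on the x axis and 0.23 on the y axis.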

How the data were processed

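Raw counts per gene symbol were used as the authors deposited them, without normalization. Per the submitters' processing notes, the build was GRCh38 and the tools included STAR 2.7.3a, Subread 1.6.3 with featureCounts, and Trim Galore 0.6.4, without roles or order. The sources used here do not give the annotation. Libraries were stranded mRNA libraries read as paired ends, per the labels' protocols. Groups and replicate numbers came from the titles. Columns headed Sh1 were read as ish, since those headed Sh2 match ish2. Rows for reads in no gene, ambiguous, not unique or not aligned, 22.9% to 24.4% of each ish library, were left out. Gene counts were 30137434, 31113595 and 31926254 without Dox and 30913810, 30250071 and 32692207 with Dox.

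In edgeR 4.0.16 (R 4.3.3), genes were kept by filterByExpr by group and normalized with TMM factors. A single robust quasi-likelihood fit, with 4 group means over all 12 libraries, gave the ish effect, the ish2 effect and their difference, each adjusted by Benjamini-Hochberg. SE is the absolute log2 fold change over the square root of F, so it is approximate. The fit was tested on simulated data.

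The members, the 49 gene lists (1312 entries, of which 1140 were tested) and the words were chosen with earlier results of these data known, and no list was tested as a set. Genes were named by rule: 4 markers, listed genes marked as central, other called members with the largest changes, the 12 largest rises and 12 largest falls outside the lists with at least 5 CPM in the higher group, and the 8 largest differences each way. Some of these are not reported here. The 3′ UTR of a gene is the longest among its protein-coding transcripts in the GENCODE v29 basic set, and genes were matched by symbol. Words were ranked by a linear fit on the natural log of UTR length, on GC content and on the squares of both.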

Additional observations from a re-analysis of the deposited data

Results flagged for a closer look

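Under the same contrast, the effects of ish and ish2 differed by the interaction test in edgeR for all 4 marker genes. Of the 237 named genes tested, 222 had a called difference, against 72.6% of all tested genes, and they were not chosen independently of it. The ish effect minus the ish2 effect was -2.74 ± 0.13 for NT5E, 4.87 ± 0.12 for MYOG, -7.14 ± 0.12 for CCL2 and -3.22 ± 0.041 for DUSP6, in log2. The genes raised most by ish relative to ish2 were PGM5 (7.85 ± 0.51), ABLIM3 (7.20 ± 0.38), CASQ2 (7.16 ± 0.61), PEG3 (6.18 ± 0.67), CEACAM16 (6.08 ± 0.71), ITGB2 (5.61 ± 0.31), GADD45G (5.42 ± 0.26) and MYH8 (5.40 ± 0.13).

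Among those lowered most were C3AR1 (-8.10 ± 0.34), FRG2 (-7.69 ± 0.71), VGF (-6.18 ± 0.24), EMP1 (-5.41 ± 0.16), IL27RA (-5.40 ± 0.15) and SOX9 (-5.13 ± 0.14), besides CCL2. C3AR1, a complement receptor, fell with ish (-5.20 ± 0.37) and rose with ish2 (2.897 ± 0.10). FRG2 was near 0 in all ish libraries, going from a mean of 0.181 to 0.0417 CPM with Dox, and its ish fold (-1.97 ± 0.63) was -3.16 with replicate 3 of the Dox group left out and -1.46 with replicate 2 of that group left out. Its difference comes mostly from ish2, where it was at 0.253, 0.263 and 0.181 CPM without Dox and 12.8, 11.9 and 12.5 CPM with it (5.72 ± 0.17). ITGB2, the beta 2 integrin of leukocytes, rose with ish (2.84 ± 0.10) and fell with ish2 (-2.77 ± 0.31).

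Outside the gene counts, reads that fell in no gene made up 12.7% ± 0.11 (SD, n = 3) of the ish libraries with Dox and 11.8% ± 0.22 (SD, n = 3) of those without, and the groups did not overlap. With ish2 the share was lower with Dox, at 10.9% ± 0.17 against 11.7% ± 0.22 (SD, n = 3). The part of this share in the gene results was not tested.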

How the results depend on the processing

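The counts of called genes, with and without the 2-fold limit, stayed within 1.5 times the reported counts and NT5E kept its direction and its call under the alternatives run: RLE factors, library size only, no filter, a stricter filter, DESeq2 1.42.0, the 6 ish libraries alone, a replicate block, and each library left out in turn. Over these and the count without word holders, added after seeing the data, genes higher past 2-fold ran from 868 to 1424 and genes lower past 2-fold from 1190 to 1768. Leaving out 1 ish library gave 1094 to 1159 higher, 1581 to 1641 lower and an NT5E log2 fold change of -3.59 to -3.28. For the difference between constructs, where library size only and the stricter filter were not planned, the counts past 2-fold ran from 1271 to 1384 higher and 1864 to 2149 lower.

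Like-numbered replicates did not pair (correlations of their deviations 0.025, 0.030 and -0.051), and with the replicate block 1106 genes rose and 1595 fell past 2-fold. Of the named genes, SNX14 lost its call with DESeq2 (adjusted p = 0.065) without replicate 3 with Dox (0.058) and without replicate 2 without Dox (0.091), and no named gene that was called changed direction. ADORA2B, AGO2, ASNS, PCNA, CDKN1C and TNFAIP3, reported as not called, each passed the test under at least 1 alternative (ADORA2B without replicate 1 with Dox or replicate 2 without Dox, AGO2 without the former, CDKN1C without the latter, TNFAIP3 without replicate 2 with Dox, ASNS and PCNA with the 6 ish libraries alone), with log2 fold changes of -0.30 to -0.08. The median of the 8-base word holders ran from -0.38 to -0.34 over the same settings. List medians near 0, such as those of the WNT pathway and the CDK inhibitors, changed sign between settings and give no direction. Genes under about 1 CPM, such as MYF6, MYH7, CASQ2 and IL6 in 1 group or both, rest on few reads: leaving out 1 library moved the log2 fold change of IL6 to -2.49 (replicate 1 with Dox) and that of MYF6 to 4.08 (replicate 1 without Dox).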
